A study of Arabidopsis thaliana with 28 samples.

Results

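The transcripts described here are those of the cold- and dehydration-responsive genes KIN1, KIN2, RD29A and RD29B of Arabidopsis thaliana. They were read from 3 of the 22810 probe sets of the Affymetrix ATH1 expression array, chosen by identifier, which is given after the name of the array. ATH1.246481_s_at detects KIN1 (AT5G15960) and KIN2 (AT5G15970) together, ATH1.248337_at was taken as RD29A (also called COR78 and LTI78, AT5G52310), and ATH1.248352_at as RD29B (also called LTI65, AT5G52300). The platform annotation used here lists KIN1 and KIN2 for the first probe set and no gene for the other 2, whose gene names come from the rule that chose the genes. In the RefSeq gene order KIN1 and KIN2 are neighbours on chromosome 5, and so are RD29A and RD29B.

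The CBF proteins, AP2/ERF transcription factors, recognise the CRT/DRE element in promoters and activate genes of cold acclimation. RD29A, which encodes a hydrophilic protein, carries DRE elements in its promoter and responds to cold, drought and salt. KIN1 and KIN2 (also called COR6.6) encode small, closely similar hydrophilic proteins that accumulate in the cold, whereas the RD29B promoter is known above all for its response to the hormone abscisic acid through ABRE elements.

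The study measured the aerial parts of Ws-2 seedlings in 28 samples, 4 per group. Its 7 groups comprised CBF2Δc plants, which overexpress a truncated CBF2, after cold and kept warm, warm plants overexpressing full-length CBF1, CBF2 or CBF3 (CBF1OX, CBF2OX and CBF3OX), and wild-type plants after cold and kept warm. All plants grew on agar for 11 d at 22 °C in constant light, and the cold groups then spent 24 h at 4 °C under dimmer light (about 35 against 100 µmol m-2 s-1), so cold cannot be told apart from dimmer light and added age. Each of the 4 constructs was present in 2 transgenic lines with 2 samples each, DN96 and DN89 for CBF2Δc, G39 and G5 for CBF1OX, E24 and E2 for CBF2OX, and A30 and A28 for CBF3OX. The sources used here give neither the promoters of the transgenes nor the pooling of plants. The samples are called biological replicates, and p-values measure the spread between them only.

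Each value is a log2 expression value from GCRMA, which subtracts background by probe sequence. Array medians lay between 4.98 and 5.08, the values between 2.16 and 14.53, and a value above 4 was treated as detected. The number of arrays limits the precision. None of the 4 leaf markers on the list used had a named probe set. Of 5 root markers 3 had one, and EXPA7 and EXPA18 ran from 2.79 to 4.80 over all samples while PYK10 ran from 10.38 to 12.46. The log2 of the summed level of these 3 markers ran from 10.40 to 11.13 in cold CBF2Δc plants, 11.22 to 12.33 in warm CBF2Δc plants, 11.36 to 12.47 in CBF1OX, 11.28 to 11.99 in CBF2OX, 11.31 to 11.99 in CBF3OX, 10.65 to 11.28 in cold wild-type plants and 11.61 to 12.22 in warm wild-type plants. It was thus lower in all cold samples than in all warm wild-type samples, and its part in the results was not tested. PYK10 alone made up nearly all of this sum.

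Each comparison was a contrast in 1 limma fit over 14578 features. A difference of at least 2-fold counted as called if its p, adjusted by Benjamini-Hochberg, was below 0.05, and rose and fell are used of such differences. Log2 changes are followed by the standard error from the fit, and levels by the standard deviation of 4 samples. In whole shoots, fewer cells that hold a transcript and less of it per cell cannot be told apart.

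All 3 probe sets rose in every full-length overexpressor and in the cold. Of all features 1.80%, 1.71% and 1.94% rose in CBF1OX, CBF2OX and CBF3OX, and in the cold 8.73% rose in the wild type and 9.07% in CBF2Δc plants. In warm CBF2Δc plants KIN1/KIN2 fell far below the warm wild type, and RD29A had lower values in every sample without being called. RD29B values overlapped those of the wild type, which lay near or under the detection level, so a fall could not have been seen. In cold CBF2Δc plants all 3 stood high again.

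**Figure D1:**
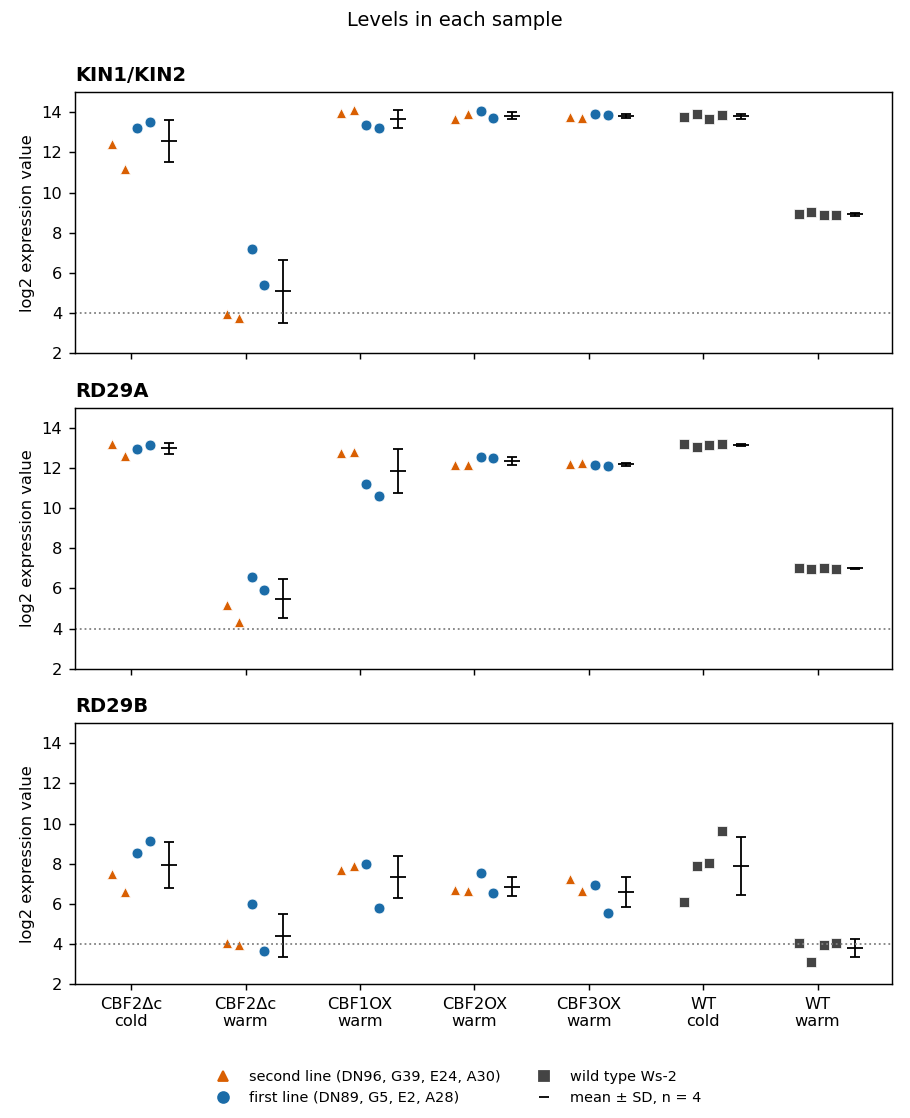
Log2 expression values of KIN1/KIN2, RD29A and RD29B in each of the 28 samples, by group, with the second line of each construct as triangles, the first line as circles, wild type as squares, the mean ± SD of 4 samples as bars, and the detection level of 4 dotted. Warm CBF2Δc plants had the lowest KIN1/KIN2 and RD29A values of all groups, with the triangles of line DN96 (3.77 and 3.96 for KIN1/KIN2) below the circles of line DN89 (5.42 and 7.17).

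KIN1/KIN2 was high in all 3 full-length overexpressors. It stood at 13.37, 13.21, 13.95 and 14.10 in CBF1OX, 14.07, 13.70, 13.66 and 13.93 in CBF2OX, and 13.92, 13.85, 13.77 and 13.72 in CBF3OX, against 8.92, 9.04, 8.91 and 8.87 in warm wild-type plants. No overexpressor sample came within 4 log2 units of a wild-type sample, and the 4 wild-type samples lay within 0.17 of each other. KIN1/KIN2 rose by 4.72 ± 0.48 on the log2 scale in CBF1OX (26.4-fold, adjusted p = 4.29e-07). CBF2OX plants gave a rise of 4.91 ± 0.48 (adjusted p = 1.69e-07), and CBF3OX plants one of 4.88 ± 0.48 (29.4-fold, adjusted p = 2.19e-07).

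Cold brought KIN1/KIN2 in the wild type to 13.79, 13.90, 13.65 and 13.87, a change of 4.87 ± 0.48 or 29.2-fold (adjusted p = 4.98e-09). The overexpressor and cold wild-type groups overlapped, and the highest KIN1/KIN2 value, 14.10, is close to 14.53, the top of the scale on these arrays. CBF1OX minus cold wild type was -0.14 (95% interval -1.13 to 0.84), CBF2OX minus cold wild type 0.04 (-0.95 to 1.02) and CBF3OX minus cold wild type 0.01 (-0.97 to 0.997), and 0 of these 3 differences were called, where 15.8%, 16.6% and 15.5% of all features were called in either direction.

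In warm CBF2Δc plants KIN1/KIN2 had 7.17, 5.42, 3.96 and 3.77, against 8.87 to 9.04 in warm wild-type plants. All 4 samples lay below every wild-type sample, and the 2 of line DN96 lay under the detection level, so the size of the change depends on the background floor. The difference was -3.86 ± 0.48, a level 14.5-fold lower (adjusted p = 0.000134). This low level was already known when the genes were chosen, so the p-value describes it and is no separate test of it. Of all features, 0.00686% were called lower in this comparison, a single feature, which is this probe set, so the share gives no background to compare it with. The 4 warm CBF2Δc samples spread over 3.40 log2 units and the wild-type samples over 0.17. With only the compared groups fitted, the same difference had a standard error of 0.66 and an adjusted p of 0.253, so the call then ended.

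Cold raised KIN1/KIN2 in CBF2Δc plants to 13.24, 13.50, 12.40 and 11.19, a change of 7.503 ± 0.48 from their own warm level, or 181-fold (adjusted p = 2.77e-12). Each of these samples lay below the lowest cold wild-type sample, 13.65, as in 2.48% of all features, and above every warm CBF2Δc sample. As the warm DN96 samples lay under the detection level, the size of the cold change depends on the background floor. The difference from the cold wild type was -1.22 ± 0.48 (95% interval -2.20 to -0.24) and was not called (adjusted p = 0.138), where 0.446% of all features were called lower. Without warm CBF2Δc replicate 1, which is in neither of these groups, this difference stayed at -1.22. The pooled standard error then fell to 0.35, and the difference was called (adjusted p = 0.0396). The cold change in CBF2Δc plants exceeded that in the wild type by 2.63 ± 0.68, which was not called (adjusted p = 0.147, with 0.0274% of all features called in either direction) but was 3.33 and called without warm CBF2Δc replicate 1 (adjusted p = 0.00395).

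RD29A had 13.21, 13.05, 13.14 and 13.17 in cold wild-type plants, against 7.02, 6.97, 7.03 and 6.97 in warm ones. The samples within each of these groups lay within 0.16 of each other, and the groups lay over 6 log2 units apart. The rise of 6.14 ± 0.37 is 70.8-fold (adjusted p = 9.52e-13). With this comparison 3 of the 3 probe sets rose in the cold, where 8.73% of all features rose and 20.9% were higher in the cold without overlap of samples.

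RD29A in the overexpressors lay below its cold wild-type level. CBF1OX plants had 11.20, 10.61, 12.75 and 12.78, CBF2OX plants 12.53, 12.50, 12.16 and 12.16, and CBF3OX plants 12.17, 12.10, 12.21 and 12.26. All 12 samples lay above every warm wild-type sample and below every cold wild-type sample. Against the warm wild type the changes were 4.84 ± 0.37 in CBF1OX (28.6-fold, adjusted p = 2.48e-09), 5.34 ± 0.37 in CBF2OX (40.5-fold, adjusted p = 2.67e-10) and 5.19 ± 0.37 in CBF3OX (36.4-fold, adjusted p = 5.16e-10). In each overexpressor 3 of the 3 probe sets rose, where 1.80%, 1.71% and 1.94% of all features rose in CBF1OX, CBF2OX and CBF3OX. Samples did not overlap for any of the 3, as in 6.27%, 6.52% and 9.60% of all features.

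CBF1OX minus cold wild type was -1.31 ± 0.37 for RD29A, a called difference (adjusted p = 0.00486), where 7.24% of all features were called lower. Of CBF2OX and CBF3OX, 0 of the 3 probe sets were called lower, where 7.83% and 7.57% of all features were. The CBF1OX call ended without CBF1OX replicate 2 (-0.90) and with only the compared groups fitted (adjusted p = 0.0541). CBF2OX minus cold wild type was -0.81 ± 0.37 (95% interval -1.57 to -0.04, adjusted p = 0.0736) and CBF3OX minus cold wild type -0.96 ± 0.37 (-1.72 to -0.20, adjusted p = 0.0344), the second short of a 2-fold change. RD29A thus lay below the cold wild-type samples in 4 of 4 samples of each overexpressor, a pattern met in 16.4%, 17.5% and 19.8% of all features for CBF1OX, CBF2OX and CBF3OX.

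In warm CBF2Δc plants RD29A had 6.57, 5.91, 5.18 and 4.34, against 6.97 to 7.03 in warm wild-type plants. All 4 samples were lower than every wild-type sample, as in 1.37% of all features. The difference of -1.498 ± 0.37 was not called (95% interval -2.26 to -0.74, adjusted p = 0.261). In cold CBF2Δc plants RD29A reached 12.95, 13.15, 13.19 and 12.62, which is 7.48 ± 0.37 above the warm level of these plants (178-fold, adjusted p = 3.13e-14) and -0.17 ± 0.37 from the cold wild type (95% interval -0.93 to 0.60, adjusted p = 0.850). Against the wild-type response to cold the difference was 1.33 ± 0.52 and was not called (adjusted p = 0.431).

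RD29B was near or under the detection level in warm wild-type plants, with 4.05, 3.13, 3.95 and 4.08, so the sizes of its changes depend on the background floor. It had 8.01, 5.78, 7.67 and 7.87 in CBF1OX, 7.55, 6.55, 6.71 and 6.66 in CBF2OX, and 6.96, 5.53, 7.22 and 6.67 in CBF3OX. Every overexpressor sample lay above every warm wild-type sample. RD29B rose by 3.53 ± 0.63 in CBF1OX (11.6-fold, adjusted p = 0.00114) and by 3.06 ± 0.63 in CBF2OX (8.37-fold, adjusted p = 0.00324). In CBF3OX plants it rose by 2.79 ± 0.63 (6.93-fold, adjusted p = 0.00581). With only the first lines in the fit the calls in CBF1OX (3.09, adjusted p = 0.140) and CBF3OX (2.44, adjusted p = 0.0675) ended.

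Cold wild-type plants had RD29B values of 6.08, 7.89, 8.03 and 9.62, a change of 4.10 ± 0.63 from the warm wild type (17.2-fold, adjusted p = 5.01e-06). RD29B varied more between replicates than the other 2 probe sets did in this group, over 3.54 log2 units. CBF1OX minus cold wild type was -0.57 (95% interval -1.86 to 0.72), CBF2OX minus cold wild type -1.04 (-2.33 to 0.25) and CBF3OX minus cold wild type -1.31 (-2.60 to -0.02), none of them called (adjusted p = 0.475, 0.176 and 0.0863). Without cold wild-type replicate 1 those of CBF2OX (-1.65, adjusted p = 0.0285) and CBF3OX (-1.92, adjusted p = 0.0120) were called.

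CBF2Δc plants kept warm had RD29B values of 6.01, 3.67, 4.08 and 3.94, 1 of them above and 3 within the range of the warm wild type. As the warm wild type lay near or under the detection level, a fall of RD29B could not have been seen. The difference was 0.62 ± 0.63 (95% interval -0.67 to 1.91, adjusted p = 1). After cold they had 8.53, 9.15, 7.47 and 6.59, a rise of 3.51 ± 0.63 (adjusted p = 4.10e-05), and all lay within the range of the cold wild type. The difference from the cold wild type was 0.03 ± 0.63 (-1.26 to 1.32, adjusted p = 0.987), and the cold response differed from that of the wild type by -0.59 ± 0.89 (adjusted p = 0.902). In cold CBF2Δc plants 3 of the 3 probe sets rose from the warm level, where 9.07% of all features did and 19.6% were higher without overlap of samples.

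**Figure D2:**
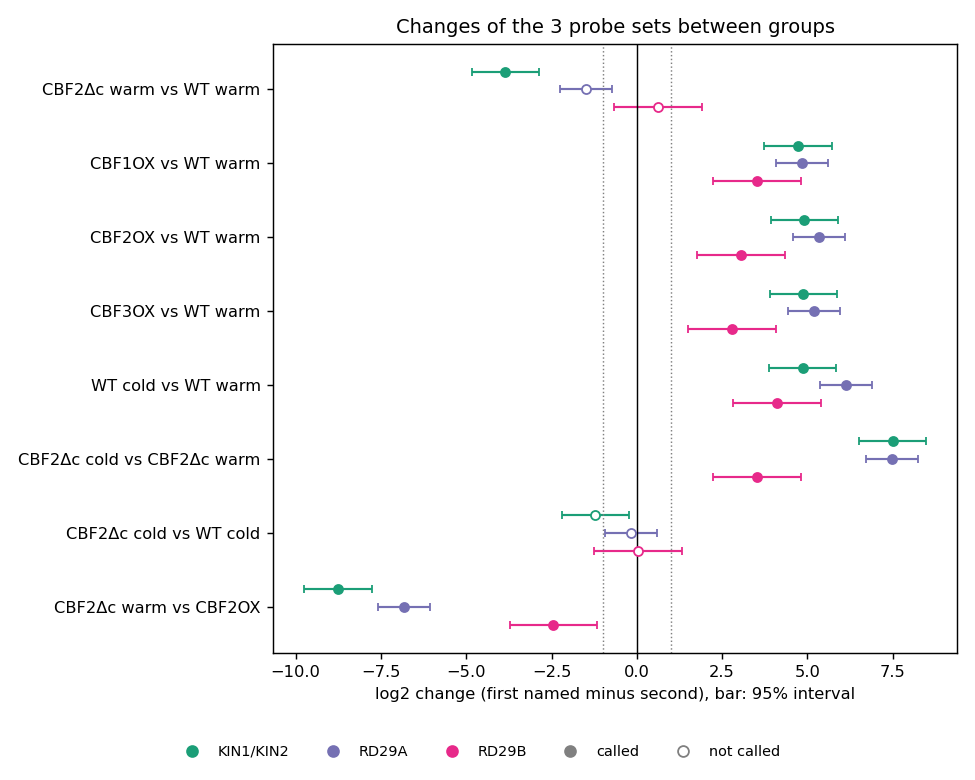
Log2 changes of KIN1/KIN2, RD29A and RD29B in 8 comparisons, with 95% intervals of the fit as bars, filled points for called changes and dotted lines at 2-fold. The 3 probe sets lie right of 0 in the overexpressors and the cold, while in warm CBF2Δc plants KIN1/KIN2 lies at -3.86, RD29A at -1.498 and RD29B at 0.62. RD29B lay near or under the detection level in the warm wild type, so a fall of it could not be seen.

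The truncated and the full-length CBF2 gave opposite results for KIN1/KIN2 in the warmth. Warm CBF2Δc minus CBF2OX was -8.76 ± 0.48 for KIN1/KIN2 (adjusted p = 1.08e-12), -6.84 ± 0.37 for RD29A (adjusted p = 1.06e-12) and -2.44 ± 0.63 for RD29B (adjusted p = 0.0184). All 3 were lower in CBF2Δc plants, with no overlap of samples, where 1.70% of all features were called lower and 5.32% were lower without overlap. The size for KIN1/KIN2 depends on the background floor, as the warm DN96 samples lay under the detection level. The RD29B call ended without CBF2OX replicate 1 (-2.22) and without warm CBF2Δc replicate 2 (-2.19), 3 (-2.33) or 4 (-2.28). It also ended without the filter on dim features (adjusted p = 0.0521), with the line as a random block (adjusted p = 0.0504) and with line means as samples (adjusted p = 0.239).

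Between the overexpressors 0 of 9 differences of these probe sets were called, where 0.0343%, 0.0206% and 0.0206% of all features were called for CBF1OX minus CBF2OX, CBF1OX minus CBF3OX and CBF2OX minus CBF3OX. The groups overlapped for every probe set. For KIN1/KIN2 the 3 differences were -0.18 (95% interval -1.17 to 0.80), -0.16 (-1.14 to 0.83) and 0.03 (-0.96 to 1.01). For RD29A they were -0.50 (-1.26 to 0.26), -0.35 (-1.11 to 0.41) and 0.15 (-0.61 to 0.91). RD29B gave 0.47 (-0.82 to 1.75), 0.74 (-0.55 to 2.03) and 0.27 (-1.02 to 1.56). Among these 9 intervals, that of RD29A in CBF2OX minus CBF3OX alone left out a 2-fold difference in both directions.

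Ordered by mean, KIN1/KIN2 was highest in CBF2OX (13.84 ± 0.19), followed by CBF3OX (13.81 ± 0.09), the cold wild type (13.80 ± 0.11), CBF1OX (13.66 ± 0.43), cold CBF2Δc plants (12.58 ± 1.04), the warm wild type (8.94 ± 0.07) and warm CBF2Δc plants (5.08 ± 1.58). Neighbours from CBF2OX to cold CBF2Δc plants overlapped, and no sample of the warm wild type or of warm CBF2Δc plants lay within the range of the group above it. RD29A was highest in the cold wild type (13.14 ± 0.07) and in cold CBF2Δc plants (12.98 ± 0.26), which overlapped each other, followed by CBF2OX (12.34 ± 0.21), CBF3OX (12.19 ± 0.07) and CBF1OX (11.84 ± 1.10). Cold CBF2Δc samples (12.62 to 13.19) did not overlap those of CBF2OX or CBF3OX but did overlap those of CBF1OX (10.61 to 12.78). Below these came the warm wild type (6.998 ± 0.03) and warm CBF2Δc plants (5.50 ± 0.96), each apart from its neighbour. For RD29B, whose means ran from 7.93 ± 1.13 in cold CBF2Δc plants to 3.80 ± 0.45 in the warm wild type, each group overlapped the next.

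The 2 lines of CBF2Δc differed in the warmth. KIN1/KIN2 had 3.96 and 3.77 in DN96, against 7.17 and 5.42 in DN89, a difference of -2.43 ± 0.35 (limma fit with a mean per line, adjusted p = 0.000741). The DN96 values lay under the detection level, so the size of this difference depends on the background floor. With 2 samples per line, the fit took its error from the spread pooled over all lines and the wild type. That error can understate the spread in warm DN89, whose samples lay 1.75 apart for KIN1/KIN2. RD29A had 5.18 and 4.34 in DN96, against 6.57 and 5.91 in DN89, or -1.48 ± 0.23 (adjusted p = 0.00131). DN96 was lower in both samples for both probe sets, so 2 of the 3 were called lower in DN96, where 0.885% of all features were. RD29B differed by -0.83 ± 0.82 (adjusted p = 0.849).

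Set against the warm wild type line by line, KIN1/KIN2 fell in both lines, with changes of -5.07 ± 0.31 in DN96 (adjusted p = 5.03e-10) and -2.64 ± 0.31 in DN89 (adjusted p = 6.11e-05). The error was again pooled over all lines and the wild type. The low level in these plants was already known when the genes were chosen, so these p-values are no separate test of it. The size in DN96 depends on the background floor. RD29A fell in DN96 (-2.24 ± 0.20, adjusted p = 6.25e-07), while its difference in DN89 was -0.76 ± 0.20 (adjusted p = 0.570). Of all features 0.988% were called lower in DN96 and 0.00686% in DN89, which is the KIN1/KIN2 probe set alone. RD29B had differences of 0.21 ± 0.71 in DN96 and 1.04 ± 0.71 in DN89, neither called.

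In the cold, KIN1/KIN2 remained lower in DN96, at 12.40 and 11.19, than in DN89, at 13.24 and 13.50, a difference of -1.57 ± 0.35 (adjusted p = 0.0202), where 1.04% of all features were called lower. DN96 minus cold wild type was -2.01 ± 0.31 for KIN1/KIN2 (adjusted p = 0.000175, with 2.04% of all features called lower). DN89 minus cold wild type was -0.43 ± 0.31 (adjusted p = 0.462, with 0.213% called lower). RD29A in the cold had 13.19 and 12.62 in DN96 and 12.95 and 13.15 in DN89, a difference of -0.14 ± 0.23 (adjusted p = 0.844). RD29B had 7.47 and 6.59 in DN96 and 8.53 and 9.15 in DN89 (-1.81 ± 0.82, adjusted p = 0.280).

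The cold change of line DN96 exceeded that of the wild type by 3.06 ± 0.43 for KIN1/KIN2 (adjusted p = 0.000480) and by 2.00 ± 0.28 for RD29A (adjusted p = 0.000490), where 0.137% of all features were called higher. Warm DN96 lay under the detection level for KIN1/KIN2, so the size of that excess depends on the background floor. RD29A of DN96 reached the cold wild-type range in 1 of its 2 samples and KIN1/KIN2 in neither, and both had started below the warm wild type. For DN89 the excess was 2.21 ± 0.43 for KIN1/KIN2 (adjusted p = 0.0547) and 0.67 ± 0.28 for RD29A (adjusted p = 0.498), neither called, where 0.0274% of all features were called higher. The KIN1/KIN2 excess of DN89 was called with a variance trend and robust moderation in limma (2.21, adjusted p = 0.0344) and after centring the arrays on their medians (2.22, adjusted p = 0.0469). The cold changes of DN96 and DN89 did not differ by a called amount, at 0.86 ± 0.50 for KIN1/KIN2 (adjusted p = 0.838) and 1.33 ± 0.33 for RD29A (adjusted p = 0.348), where 0.00686% of all features were called.

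**Figure D3:**
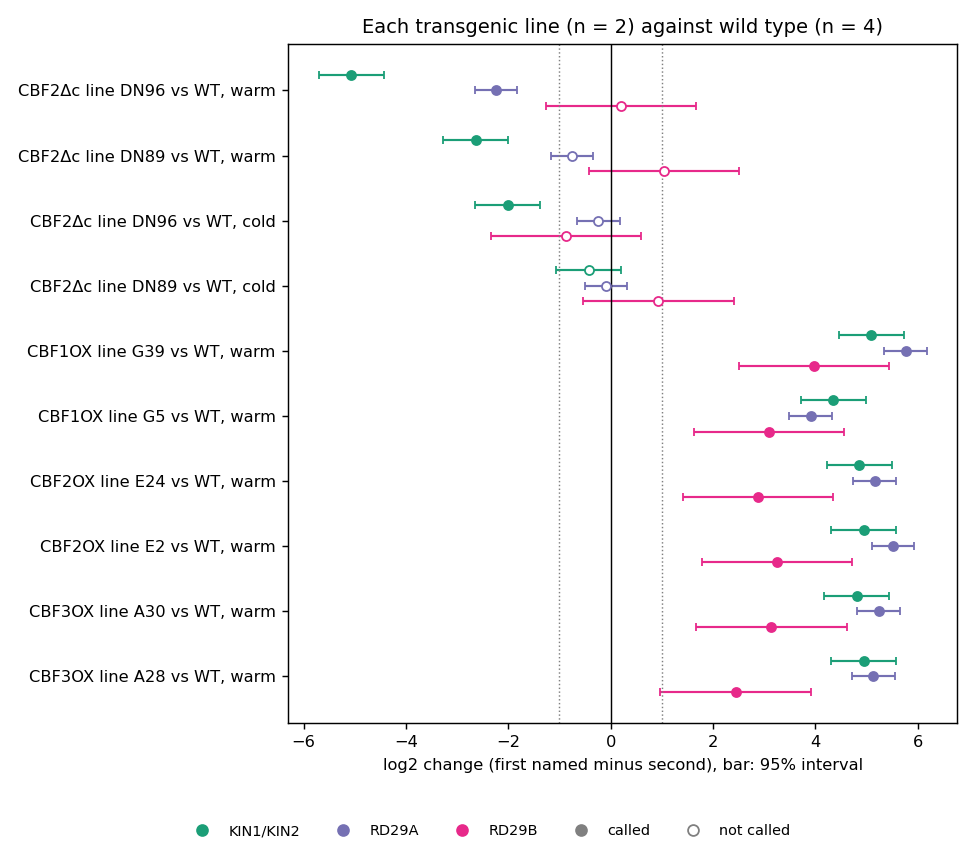
Log2 changes of KIN1/KIN2, RD29A and RD29B in each transgenic line (2 samples) against wild-type plants at the same temperature (4 samples), with 95% intervals of the fit as bars and filled points for called changes. KIN1/KIN2 lies at -5.07 in warm DN96 and -2.64 in warm DN89, and at 5.09 in G39 and 4.36 in G5.

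Against the warm wild type all 3 probe sets rose in each of the 6 full-length lines, where 3.96%, 0.466%, 1.67%, 2.54%, 1.89% and 2.23% of all features rose in G39, G5, E24, E2, A30 and A28. With a variance trend and robust moderation in limma's eBayes step the RD29B calls ended in G5 (3.09, adjusted p = 0.0950) and A28 (2.44, adjusted p = 0.0530). Within constructs, a line difference was called for CBF1OX. RD29A had 12.75 and 12.78 in G39, against 11.20 and 10.61 in G5, a difference of 1.86 ± 0.23 (adjusted p = 7.11e-06), where 2.49% of all features were called higher in G39. KIN1/KIN2 differed by 0.73 ± 0.35 (adjusted p = 0.227) and RD29B by 0.87 ± 0.82 (adjusted p = 0.622). With only the first lines in the fit, RD29A was lower in CBF1OX than in CBF2OX (-1.61, adjusted p = 0.000116) and CBF3OX (-1.23, adjusted p = 0.00162). With only the second lines the signs turned (0.605, adjusted p = 0.116, and 0.53, adjusted p = 0.33). For RD29A, E24 minus E2 of CBF2OX was -0.36 ± 0.23 (adjusted p = 0.448) and A30 minus A28 of CBF3OX 0.10 ± 0.23 (adjusted p = 1). In these pairs 0 of the 3 probe sets were called, where 2.29% and 0.00686% of all features were.

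Some probe sets without a gene in the annotation followed the constructs in warm plants and were picked after their values were seen. ATH1.254074_at had 9.92 and 9.87 in G39, against 7.74 and 6.95 in G5, and at most 2.3 in the other warm groups, so the line with the higher RD29A level also had more of it. ATH1.254075_at had 13.55 and 13.58 in warm DN96, against 12.91 and 13.15 in warm DN89, and 11.51 to 12.19 in CBF2OX. After cold the lines overlapped for ATH1.254075_at, with 13.63 and 13.54 in DN96 and 13.40 and 13.64 in DN89. The part of these levels in the line differences was not tested.

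Of 18 CRT/DRE and cold-regulated genes on a list written for this comparison, 4 had a named probe set: COR15A and COR15B, which encode cold-induced chloroplast proteins, and the dehydrin genes LTI30 and COR47. All 4 rose in CBF1OX, CBF2OX, CBF3OX and the cold wild type, where 1.80%, 1.71%, 1.94% and 8.73% of all features rose. Their median changes were 5.01, 5.58, 5.43 and 5.6 in this order, against medians over all features of 0.01, 0.00, 0.00 and -0.04. COR15A changed most, by 8.11, 8.25, 8.10 and 7.70 in these 4 comparisons. It averaged 4.465 ± 0.36 in the warm wild type, close to its lowest value on any array, 4.27. The sizes of these changes therefore depend on the background floor, and a fall of COR15A in warm CBF2Δc plants could not have been seen. In warm CBF2Δc plants 0 of the 4 were called, where 0.0206% of all features were called in either direction, with LTI30 at -1.34, COR47 at -0.54, COR15A at -0.15 and COR15B at 0.31 (adjusted p = 0.498, 0.816, 1 and 0.918). In cold CBF2Δc plants 0 of 4 were called against the cold wild type, where 0.837% of all features were, with LTI30 at -0.63, COR15A at -0.63, COR47 at -0.44 and COR15B at 0.06.

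Of 20 genes known to respond to abscisic acid, 1 had a named probe set, LEA4-5, whose product is a late embryogenesis abundant (LEA) protein. LEA4-5 averaged 8.61 ± 0.82 in cold CBF2Δc plants, against 3.11 ± 0.54 in warm ones, and 8.01 ± 1.29 in the cold wild type, against 2.69 ± 0.32 in the warm wild type. It rose in the cold both in CBF2Δc plants and in the wild type (adjusted p = 2.18e-09 and 3.88e-09). In CBF1OX it averaged 4.20 ± 1.11, and in CBF2OX (3.06 ± 0.17) and CBF3OX (3.35 ± 0.66) its mean lay under the detection level, as in the warm wild type. The sizes of differences between these warm groups therefore depend on the background floor. Against the warm wild type they were 1.515 in CBF1OX, 0.37 in CBF2OX and 0.665 in CBF3OX, none of them called (adjusted p = 0.0871, 0.789 and 0.492). All 3 overexpressors were called lower than the cold wild type (adjusted p = 1.08e-06, 1.62e-08 and 4.78e-08), and the sizes of these differences and of the cold rises depend on that floor. Of 11 genes of abscisic acid synthesis and turnover and of 18 genes for regulators of RD29A and RD29B, 0 had a named probe set.

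**Figure D4:**
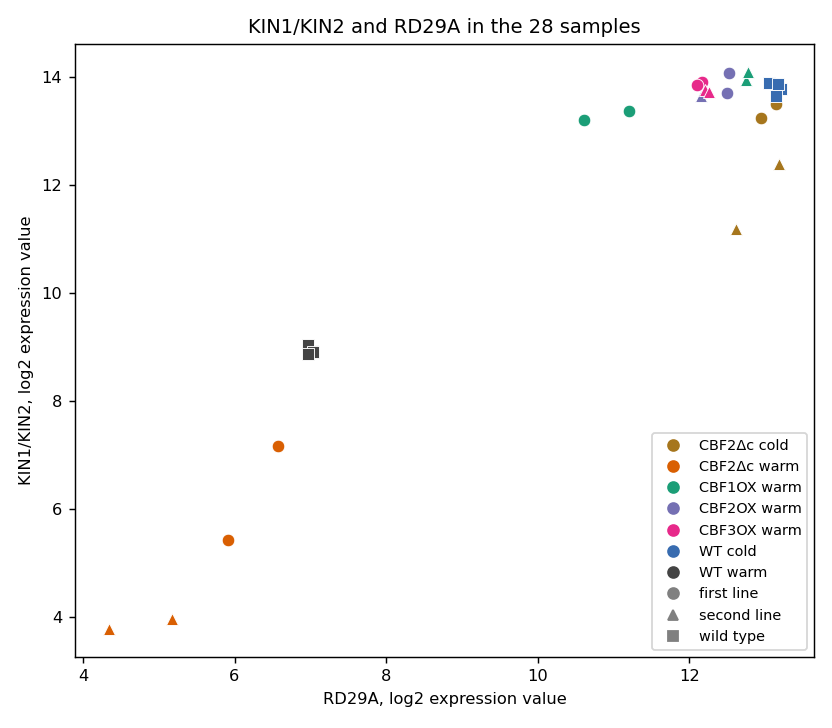
KIN1/KIN2 (vertical axis) against RD29A (horizontal axis), both as log2 expression values, in the 28 samples, with colours for groups, triangles for second lines, circles for first lines and squares for wild type. Warm CBF2Δc samples (7.17 down to 3.77 for KIN1/KIN2) lie apart from and below the warm wild type (8.87 to 9.04). The CBF1OX line G5 lies left of the other overexpressor samples on the RD29A axis.

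The features most like each probe set were named by Pearson's r over the 28 samples, which share the group structure, so r describes these arrays and carries no test. KIN1/KIN2 was closest to LTI30 (0.957), ATH1.265480_at (0.946), RD29A (0.946), COR47 (0.936) and COR15A (0.932). RD29A was closest to LTI30 (0.9898), COR47 (0.983), ATH1.259516_at (0.966), COR15B (0.962) and AT1G16850 (0.958), with KIN1/KIN2 at rank 11. LTI30 had 6.80 ± 0.66 in warm CBF2Δc plants and 8.15 ± 0.25 in warm wild-type plants, a difference that was not called (limma, adjusted p = 0.498). These groups have the same order for KIN1/KIN2 and RD29A, but LTI30 was named for its likeness over samples that include them, so the shared order is no separate result.

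RD29B was closest to ATH1.256022_at (0.881), ATH1.245711_at (0.880), ATH1.253872_at (0.877), ATH1.251084_at (0.876) and ATH1.259516_at (0.875), all without a gene in the annotation. RD29A stood at rank 21 (0.853) and KIN1/KIN2 at rank 175 (0.767) in this order. By Spearman's rho the order changed, with RD29A at rank 432 for KIN1/KIN2 (0.631) and LTI30 at rank 192 for RD29A (0.863). Over the 7 group means LTI30 stayed at rank 1 for RD29A (0.995) and ATH1.256022_at at rank 1 for RD29B (0.991).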

How the data were processed

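The authors deposited log2 expression values per probe set. The submitters' processing notes name GCRMA and limma, with versions, probe definition and joint handling of arrays not given in the sources used here. Base 2 was inferred from the spread of values. Tools were limma 3.58.1 and statmod 1.5.0 in R 4.3.3, and pandas 2.3.3 and matplotlib 3.10.9 in Python 3.11.15. Of 22810 probe sets 64 controls were left out, 13513 had 1 gene in the platform annotation, 503 several and 8730 none. The highest-mean probe set per gene, all unnamed probe sets and the 3 described here were tested if above 4 in at least 4 arrays, leaving 14578 features; the 3 were above 4 in 26, 28 and 24 arrays.

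A limma model (lmFit, eBayes) with 7 group means gave 15 comparisons, and one with a mean per line 20 more, with p-values adjusted over all features by Benjamini-Hochberg within each comparison. The fit was tested on simulated data. Several comparisons share warm or cold wild-type samples and are given side by side. The genes, lists and comparisons were chosen with earlier results of these data known. Named are the 3 probe sets, the 5 features most like each, and up to 4 called genes per list. The alternatives concerned the filter, scaling, variance model, lines, replicate numbers and single samples.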

Additional observations from a re-analysis of the deposited data

Results flagged for a closer look

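In groups of 4 samples, RD29B had 1 sample far from the others in 3 groups, 5.78 in CBF1OX (replicate 2), 7.55 in CBF2OX (replicate 1) and 3.13 in the warm wild type (replicate 2). Of 21 groups examined 3 stood out in this way, where chance gives about 1 in 20.

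Transgenic lines of 1 construct differed in the fit with a mean per line. RD29A was higher in CBF1OX line G39 than in G5 by 1.86. In warm CBF2Δc plants KIN1/KIN2 (-2.43) and RD29A (-1.48) were lower in line DN96 than in DN89, and in the cold KIN1/KIN2 was lower in DN96 (-1.57). The cold change of DN96 exceeded that of the wild type by 3.06 for KIN1/KIN2 and 2.00 for RD29A. These are 6 of 24 differences looked at, which also include the cold changes of DN96 and DN89 against that of the wild type. Each line had 2 samples, so the fit took its error from the spread pooled over all lines and the wild type. Warm DN96 lay under the detection level for KIN1/KIN2, so sizes that use it depend on the background floor. Of all features 2.49% were called higher in G39 and 0.885% lower in warm DN96. In cold DN96 1.04% were called lower, and 0.137% were called higher for its excess cold change.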

How the results depend on the processing

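Of 45 results (3 probe sets in 15 comparisons) 20 were called, 18 of these in all 28 fits without 1 sample, and no called change turned its sign in any alternative run. Calls that ended were RD29B in warm CBF2Δc minus CBF2OX without the filter and with the line as a random block or line means (-2.44 in each) and with first lines alone (-2.21), KIN1/KIN2 in warm CBF2Δc minus warm wild type (-3.86) and RD29A in CBF1OX minus cold wild type (-1.31) with only the compared groups, RD29B in CBF1OX (3.09) and CBF3OX (2.44) with first lines alone, and RD29A in CBF1OX minus cold wild type with second lines alone (-0.38). Calls were gained for RD29A in CBF3OX minus cold wild type after centring (-1.01) and with first lines (-1.01), in CBF1OX minus CBF2OX (-1.61) and CBF3OX (-1.23) with first lines, and with second lines in warm CBF2Δc minus wild type (-2.24) and the difference of cold changes (2.00), where KIN1/KIN2 gained too (3.06, and -2.01 in cold CBF2Δc minus wild type). Uncalled differences turned their sign for KIN1/KIN2 minus cold wild type in CBF2OX (centring -0.0125, quantile -0.100, second lines -0.0075), CBF3OX (-0.0425, -0.0354, -0.0575) and CBF1OX (second lines 0.22). With second lines CBF1OX minus CBF2OX turned for KIN1/KIN2 (0.23) and RD29A (0.60), CBF1OX minus CBF3OX for both (0.28 and 0.53), CBF2OX minus CBF3OX for RD29A (-0.075) and RD29B (-0.26), and cold CBF2Δc minus wild type for RD29B (-0.88; quantile -0.0598). KIN1/KIN2 in CBF2OX minus CBF3OX turned by quantile (-0.0651) and RD29B in CBF1OX minus CBF2OX with first lines (-0.16). The cause was not tested.

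Without single samples the ranges that crossed a threshold or 0 were -1.53 to -0.76 (KIN1/KIN2) and -0.58 to 0.60 (RD29B) in cold CBF2Δc minus wild type, 2.2 to 3.33 (KIN1/KIN2, difference of cold changes), -2.97 to -2.19 (RD29B, warm CBF2Δc minus CBF2OX), -0.67 to 0.0583 (RD29A, CBF1OX minus CBF3OX), -0.0517 to 0.085 (KIN1/KIN2) and -0.0825 to 0.48 (RD29B) in CBF2OX minus CBF3OX, and, minus cold wild type, -0.29 to 0.00417 (KIN1/KIN2) and -1.62 to -0.90 (RD29A) in CBF1OX, -0.0392 to 0.0975 (KIN1/KIN2) and -1.65 to -0.47 (RD29B) in CBF2OX, and -0.0383 to 0.045 (KIN1/KIN2) and -1.92 to -0.74 (RD29B) in CBF3OX. Counts of all features called, on which the background shares rest, depended on the fit: 369 in CBF1OX against 35 with only the compared groups, 163 with line means, 70 with first lines, 1166 with second lines and 140 to 629 without single samples; 364 in CBF2OX against 226 to 751; 525 in CBF3OX against 317; 3 in warm CBF2Δc minus wild type against 1 to 139; 122 in cold CBF2Δc minus wild type against 26 to 376; 4 in the difference of cold changes against 0 to 65; 362 in warm CBF2Δc minus CBF2OX against 101 to 806; and 5, 3 and 3 between overexpressors against 1 to 449, 1 to 341 and 133. In the fit with a mean per line, the variance trend ended the RD29B calls in G5 and A28, the trend and centring each gave a KIN1/KIN2 call for the excess cold change of DN89, and no other line result changed its call or sign under these 2 alternatives, the only ones run for lines. Dim values limit RD29B, LEA4-5, COR15A and warm CBF2Δc KIN1/KIN2, whose changes depend on the background floor.

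Replicate numbers are shared across groups, and in transgenic groups numbers 1 and 2 are the first line and 3 and 4 the second. Deviations of same-numbered samples correlated at -0.286 to 0.380, and 12 of 28 samples correlated best with their own number. These values do not settle whether the numbers are pairs, and the main fit did not take them as pairs. With the replicate block 45 of 45 results kept their direction and side, KIN1/KIN2 in warm CBF2Δc minus wild type at -3.86.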
